A study of Bos taurus with 6 samples.

Results

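The family of miR-15, miR-16, miR-195 and miR-497 was followed in small RNA libraries of bovine fat cell precursors and adipocytes. Its members were taken by name, as the known microRNA (miRNA) rows of the deposited count table for bta-miR-15a, bta-miR-15b, bta-miR-16a, bta-miR-16b, bta-miR-195 and bta-miR-497, whichever arm was named. The cattle prefix bta- is mostly dropped below. This gave 6 of 879 known and predicted miRNA rows and of 2213 rows in all. Each member had 1 row with no arm in its name, and all 6 passed the low-count filter.

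The series held 3 libraries labelled preadipocytes, the committed precursors of fat cells, and 3 labelled adipocytes. All came from Holstein cattle cells at passage 4 to 6, cultured in F12/DMEM medium with serum and antibiotics. Induction was with insulin, dexamethasone, rosiglitazone (an agonist of the fat cell regulator PPARG) and IBMX (a phosphodiesterase inhibitor). The labels give the same culture text and the source adipose tissue for all 6 samples. They do not state whether the preadipocyte samples were ever induced or how long induction lasted. Whether the replicates are different animals, cultures or only different preparations is not stated either, so every p-value below is relative to a between-library spread that may be purely technical.

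The family is defined by a shared seed, the stretch near the 5′ end of a miRNA that pairs with target messenger RNAs. Its members are best known for repressing cyclins, cyclin-dependent kinases and the survival gene BCL2, and so for restraining the cell cycle and favouring apoptosis. Mammalian genomes carry them as pairs made from common transcripts, so the partners of a pair are matured from 1 primary RNA. In the RefSeq gene table for cattle (assembly ARS-UCD2.0, used only for names and neighbours), MIR15A lies beside MIR16A within LOC100847818, a transcribed pseudogene. MIR15B lies beside MIR16B within SMC4, which encodes a condensin subunit needed for chromosome packaging in dividing cells. MIR195 lies beside MIR497 within LOC107131510, a long noncoding RNA gene. No other miRNA gene overlapped any of the 6.

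The 6 libraries held 19292757 to 25801117 reads in the table, of which 14525284 to 22283754 fell on miRNA rows. Family reads numbered 25762 in the library with the fewest and 100913 in that with the most. Reads in exon, intron, intergenic and repeat rows made up 18.5%, 18.9% and 5.29% of preadipocyte replicates 1, 2 and 3 and 8.21% to 12.0% of the adipocyte libraries. Without preadipocyte replicate 3 the number of miRNAs past the edgeR threshold went from 26 of 414 to 148 of 465, so values without that library are given below beside the results whose call it changes. No messenger RNA was measured, so the labels could be set only against marker miRNAs. The summed reads of 5 of 5 adipocyte-linked miRNAs ran from 33510 to 42580 unscaled counts-per-million (CPM) of miRNA reads in adipocytes and from 21600 to 29060 CPM in preadipocytes. Most of this sum was miR-143. After the TMM scaling described below, miR-143 averaged 24214 CPM in adipocytes and 30171 CPM in preadipocytes, with overlapping groups (log2 difference -0.32). On that scale miR-103, miR-107 and miR-148a had positive estimates. The remaining listed marker, miR-378, is not described here. The unscaled sum therefore does not show that the listed markers moved together. The endothelial marker miR-126 ranged over 44.9 to 91 CPM in adipocytes and 95.4 to 334 CPM in preadipocytes, and its part in the results was not tested. Summed white blood cell markers (3 of 3 with rows) stayed at or below 0.207 and erythroid markers (3 of 3) at or below 3.99 CPM in every library. Muscle markers (4 of 4) summed to 17.8 to 38.8 CPM, neuronal ones (1 of 2 with a row) to 4.29 to 7.52 CPM, epithelial ones (4 of 4) to at most 0.993 CPM and the liver marker miR-122 to at most 0.138 CPM, with overlapping groups.

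Together the 6 members made up a larger part of the miRNA pool in adipocytes. Before any scaling between libraries they took 6712, 5724 and 4454 CPM in adipocyte replicates 1, 2 and 3 and 2406, 1774 and 2331 in preadipocyte replicates 1, 2 and 3. Every adipocyte library was above every preadipocyte library, and the means of 5630 ± 1132 and 2170 ± 345 (SD, n = 3 each) differed 2.59-fold (two-sided exact permutation p = 0.1, the smallest that 3 against 3 can give). In such bulk RNA a change in the mix of cells and a change in the level per cell cannot be told apart. Part of that distance lies in the scaling. TMM factors, which set each library by the bulk of its miRNAs, were 1.02 to 1.40 in adipocytes and 0.734 to 0.846 in preadipocytes. On that scale, which all CPM below use unless called unscaled, the family stood at 5002, 4095 and 4356 CPM in adipocyte replicates 1 to 3 and at 2868, 2098 and 3174 CPM in preadipocyte replicates 1 to 3. The groups still did not overlap, with means of 4484 ± 467 and 2713 ± 554 CPM (SD, n = 3 each), a 1.65-fold difference. With its 6 rows replaced by their sum, the family differed by a log2 of 0.75 (SE 0.24, 95% interval 0.18 to 1.32, adipocytes over preadipocytes), which did not pass edgeR's quasi-likelihood test after Benjamini-Hochberg (BH) adjustment (adjusted p = 0.0846). Without preadipocyte replicate 3 the sum differed by 0.90 and passed (edgeR BH-adjusted p = 0.0404).

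Among the single members, 1 of 6 rose past the threshold of 0.05 and 0 fell, where 3.86% of the 414 tested miRNAs were called higher and 2.42% lower. At an unadjusted edgeR p below 0.05 there were 141 miRNAs, miR-15a, miR-15b, miR-16a and miR-16b among them. All 6 members had a positive estimate, against 50% of all tested miRNAs, and their median log2 difference was 0.74, against -0.02 over all. After TMM scaling the adipocyte libraries all lay above the preadipocyte libraries for 4 of 6 members and for 24.2% of all tested miRNAs. In unscaled CPM this held for 6 of 6 members and for 38.6% of all. Members lay between ranks 22 and 193 by mean level and between ranks 47 and 152 by log2 difference among the 414.

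**Figure D1:**
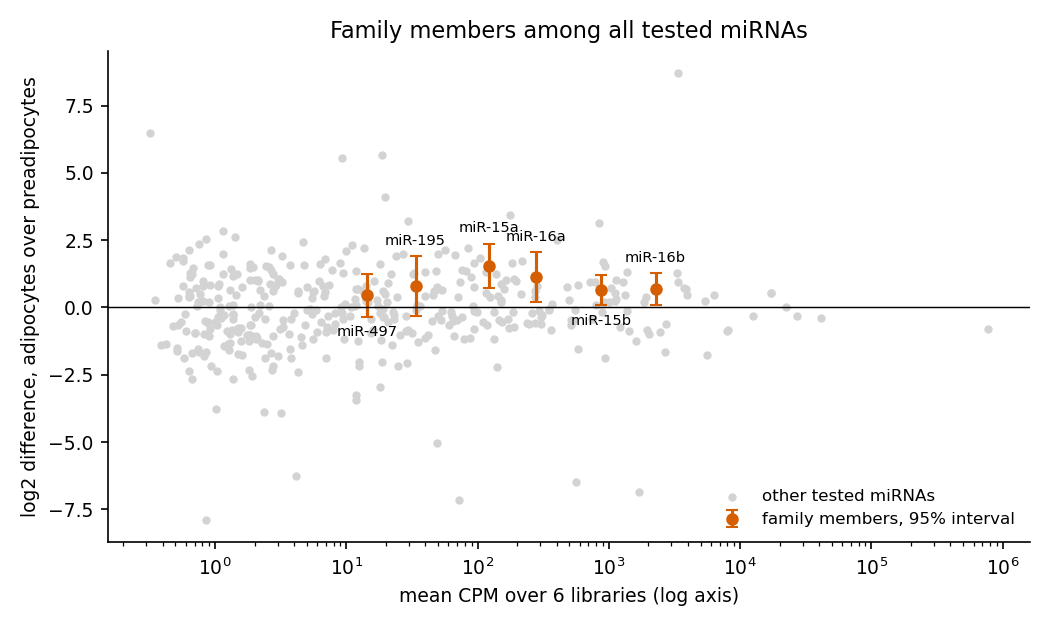
Log2 difference of adipocytes over preadipocytes (vertical axis) against mean CPM over the 6 libraries (horizontal log axis) for the 414 tested miRNAs, each a grey point; family members are in orange with 95% intervals from edgeR. All 6 members lie above 0, from 0.46 for miR-497 to 1.56 for miR-15a, and the intervals of miR-195 and miR-497 cross 0.

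The pair of miR-15a and miR-16a had the 2 largest estimates of the 6. bta-miR-15a, known for targeting BCL2, stood at 228, 190 and 131 CPM in adipocyte replicates 1, 2 and 3 and at 65.9, 47.3 and 73.9 CPM in preadipocyte replicates 1, 2 and 3. All 3 adipocyte libraries were above all 3 preadipocyte libraries, with adipocyte replicate 3 the lowest of its group. The means of 183 ± 48.8 and 62.4 ± 13.6 CPM (SD, n = 3 each) gave a 2.94-fold rise, 1.56 on the log2 scale (SE 0.34), with a BH-adjusted p of 0.0481 in edgeR. That call sits close to the threshold: leaving out adipocyte replicate 1, 2 or 3 moved the adjusted p to 0.185, 0.165 or 0.0789, and leaving out preadipocyte replicate 1 or 2 to 0.121 or 0.115, while without preadipocyte replicate 3 it was 0.0234 (edgeR, BH). The log2 difference itself stayed between 1.36 and 1.69 over those 6 fits.

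For its neighbour bta-miR-16a, the same libraries held 485, 370 and 287 CPM (adipocytes) and 132, 130 and 258 CPM (preadipocytes), in replicate order. The groups did not overlap, but the lowest adipocyte library and preadipocyte replicate 3, the highest of its group, lay close together. The means were 381 ± 99.1 and 173 ± 73.5 CPM (SD, n = 3 each), a log2 difference of 1.13 (SE 0.39, 95% interval 0.21 to 2.06) that did not pass (edgeR BH-adjusted p = 0.0955). Without preadipocyte replicate 3 it was 1.53 and passed (edgeR BH-adjusted p = 0.023), as 13.8% of the rows then tested did in that direction.

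The rows of miR-16b and miR-15b, whose genes lie within SMC4, held most of the family's reads. The counting may split reads between members of near-identical sequence, so the genes these reads came from were not established. bta-miR-16b, the most abundant member, stood at 3077, 2585 and 2713 CPM in adipocyte replicates 1 to 3 and at 1891, 1304 and 2058 CPM in preadipocyte replicates 1 to 3. The groups were apart, with means of 2792 ± 255 and 1751 ± 396 CPM (SD, n = 3 each). The log2 difference of 0.67 (SE 0.25, 95% interval 0.08 to 1.27) did not pass (edgeR BH-adjusted p = 0.11).

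Its neighbour bta-miR-15b, the second most abundant, was at 1139, 904 and 1164 CPM in the adipocyte libraries and at 735, 597 and 738 CPM in preadipocytes, in replicate order. Again every adipocyte library was the higher, by a narrower margin than for miR-15a. Means of 1069 ± 143 and 690 ± 80.8 CPM (SD, n = 3 each) gave a log2 difference of 0.63 (SE 0.23, 95% interval 0.08 to 1.19), which did not pass (edgeR BH-adjusted p = 0.11).

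The pair of miR-195 and miR-497, described as brakes on proliferation in several cell types, was the scarcest. bta-miR-195 was at 56.3, 30.6 and 41.9 CPM in adipocyte replicates 1 to 3 and at 28.6, 12.2 and 32.9 CPM in preadipocyte replicates 1 to 3. Adipocyte replicate 2 fell below preadipocyte replicate 3, so the groups overlapped. The means were 42.9 ± 12.9 and 24.6 ± 10.9 CPM (SD, n = 3 each), and the log2 difference of 0.81 (SE 0.46, 95% interval -0.30 to 1.91) did not pass (edgeR BH-adjusted p = 0.242).

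bta-miR-497 was at 16.7, 14.7 and 18.4 CPM in the adipocyte libraries and at 14.8, 8.06 and 13.3 CPM in preadipocytes, in replicate order. Adipocyte replicate 2 lay just below preadipocyte replicate 1, so these groups overlapped too. Its log2 difference was 0.46 (SE 0.33, 95% interval -0.34 to 1.26, edgeR BH-adjusted p = 0.339), the smallest of the family. Its lowest count, 99 reads in preadipocyte replicate 2, has an exact 95% Poisson interval of 80.5 to 121 reads, which covers counting error only. The order of mean levels was miR-16b, miR-15b, miR-16a, miR-15a, miR-195 and miR-497 in both groups. These CPM levels were compared without a length correction, which takes the reads in each row as mature miRNAs of nearly equal length.

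**Figure D2:**
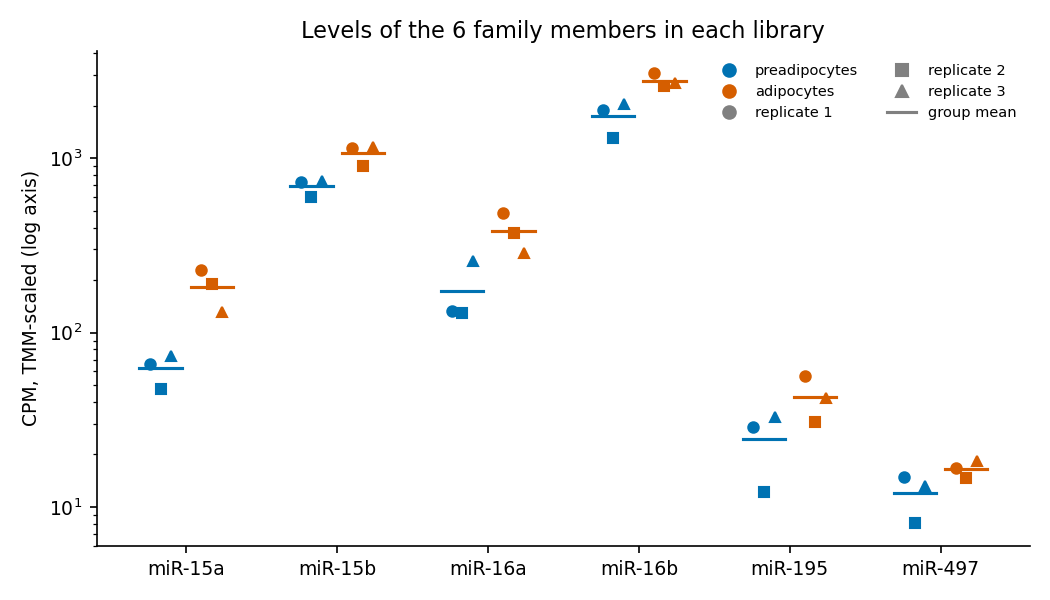
CPM after TMM scaling (vertical log axis) of each member in every library, with preadipocytes in blue, adipocytes in orange, one marker shape per replicate and bars for group means. The groups are separate for miR-15a, miR-15b, miR-16a and miR-16b and overlap for miR-195 and miR-497.

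Since the counting may split reads between members of near-identical sequence, their rows were also summed. The sum of miR-15a and miR-15b differed by a log2 of 0.74 (edgeR BH-adjusted p = 0.0782), and that of miR-16a and miR-16b by 0.73 (0.0999 by the same test). Neither sum passed. By gene pair, a grouping chosen after seeing the data, miR-15a with miR-16a differed by 1.25 (95% interval 0.40 to 2.11, edgeR BH-adjusted p = 0.0668) and miR-15b with miR-16b by 0.68 (95% interval 0.12 to 1.24, edgeR BH-adjusted p = 0.103). The sum of miR-195 and miR-497 differed by 0.70 (95% interval -0.29 to 1.68, edgeR BH-adjusted p = 0.253). In the 7 fits with a summed row, 6.05% to 6.78% of the rows were called in either direction. Without preadipocyte replicate 3, 4 of these 5 sums passed, at 0.81 for miR-15a with miR-15b, 0.90 for miR-16a with miR-16b, 1.58 for miR-15a with miR-16a and 0.80 for miR-15b with miR-16b (edgeR BH-adjusted p = 0.0479, 0.0449, 0.0225 and 0.049). In that setting 13.8% of the single rows were called higher. The sum of all members but miR-16a and miR-16b then passed as well, at 0.82 (edgeR BH-adjusted p = 0.0481).

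In the make-up of the family, the share of miR-15a was the only one of 6 that separated the groups. With 3 against 3, shuffled labels separate the groups of any single share with a probability of 0.1. In reads of the 6 members, miR-16b took 62.3% ± 0.808 in adipocytes and 64.3% ± 1.95 in preadipocytes, and miR-15b took 23.9% ± 2.50 and 25.8% ± 2.60 (SD, n = 3 each). miR-16a took 8.44% ± 1.63 and 6.31% ± 1.77, while miR-195 and miR-497 took at most 1.13% each in any library. For these 5 members the groups overlapped, with two-sided exact permutation p-values of 0.2 to 0.7. The share of miR-15a was 4.56%, 4.64% and 3.02% in adipocyte replicates 1 to 3 and 2.30%, 2.26% and 2.33% in preadipocyte replicates 1 to 3. It was higher in all 3 adipocyte libraries, and the 3 preadipocyte libraries were almost equal (two-sided exact permutation p = 0.1, the smallest possible). The pair of miR-15b and miR-16b together took 86.2% ± 2.50 in adipocytes and 90.1% ± 1.80 in preadipocytes (two-sided exact permutation p = 0.2, n = 3 each).

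**Figure D3:**
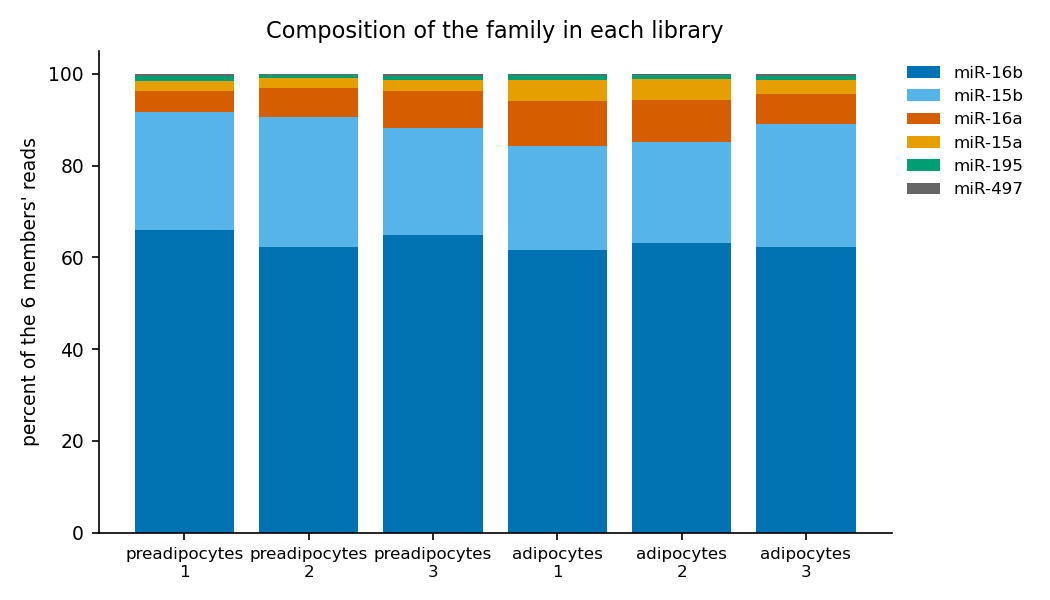
Percent of the 6 members' summed reads taken by each member (vertical axis, stacked) in the 6 libraries. miR-16b takes 61.5% to 65.9% of every bar, and the miR-15a band is widest in adipocyte replicates 1 and 2, at 4.56% and 4.64%.

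Ratios between members inside a library carry no scaling factor, and 15 pairs were compared. The neighbours miR-15b and miR-16b kept the steadiest ratio of the 3 gene pairs. Its log2 was -1.43, -1.52 and -1.22 in adipocyte replicates 1 to 3 and -1.36, -1.13 and -1.48 in preadipocyte replicates 1 to 3, a difference of -0.07 (two-sided exact permutation p = 0.6). Against reads of miR-16b as the library size in edgeR, a test added after seeing the data, the 95% interval of the difference ran from -0.65 to 0.51. For miR-15a over miR-16a the log2 ratio was -1.09, -0.96 and -1.13 in adipocytes and -1.00, -1.46 and -1.81 in preadipocytes, and the groups overlapped. That difference was 0.36 (two-sided exact permutation p = 0.3; edgeR interval -0.61 to 1.26). For miR-195 over miR-497 it was 0.38 (two-sided exact permutation p = 0.4; edgeR interval -0.54 to 1.31).

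Of the 15 pairs, 3 had groups that did not overlap, and each of them held miR-15a. With 3 against 3, shuffled labels separate the groups of any single pair with a probability of 0.1. The 3 pairs also share the counts of miR-15a, the member with the largest estimate, so they are not separate observations. The log2 ratio of miR-15a over miR-16b was -3.75, -3.77 and -4.37 in adipocyte replicates 1 to 3 and -4.84, -4.78 and -4.80 in preadipocyte replicates 1 to 3. Relative to miR-16b, miR-15a was thus higher in adipocytes by 0.85, and relative to miR-15b and miR-497 it was higher by 0.91 and 1.04 (two-sided exact permutation p = 0.1 each, the smallest possible). In the added edgeR fits the difference from miR-16b was 0.87 (95% interval 0.16 to 1.59, BH-adjusted p = 0.0779, where 22.5% of 413 miRNAs were called). The difference from miR-15b was 0.96 (95% interval 0.14 to 1.78, edgeR BH-adjusted p = 0.0881, where 24% were called). Neither passed. miR-16a over miR-16b differed by 0.48 with overlapping groups (two-sided exact permutation p = 0.2).

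**Figure D4:**
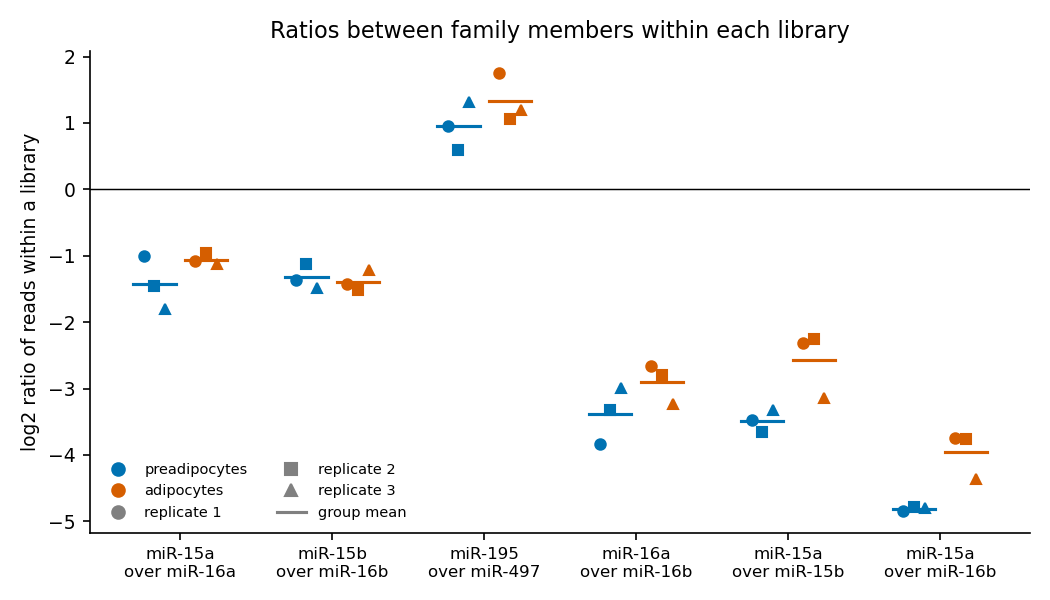
Log2 ratio of reads between members within a library (vertical axis) for the 3 gene pairs and 3 other pairs, with preadipocytes in blue, adipocytes in orange, one marker shape per replicate and bars for group means. Only the pairs of miR-15a with miR-15b and with miR-16b, among the 6 drawn, separate the groups; miR-15b over miR-16b differs by -0.07.

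The size of the members' differences, and how many passed, depended on the scaling. With library totals alone the median log2 difference of all tested miRNAs was 0.62, and miR-15a, miR-15b, miR-16a and miR-16b all passed, at 2.24, 1.26, 1.83 and 1.32 (edgeR BH-adjusted p = 0.0223 to 0.0268, where 21.3% of miRNAs were called higher). With upper-quartile factors the median was -0.31 and none of the 6 passed in edgeR's test, 1 of them having an unadjusted p below 0.05. DESeq2 on the same rows called miR-15a and miR-16a higher (1.52 and 1.10, BH-adjusted p = 6.00e-05 and 0.0291), where it called 11.8% of miRNAs higher.

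**Figure D5:**
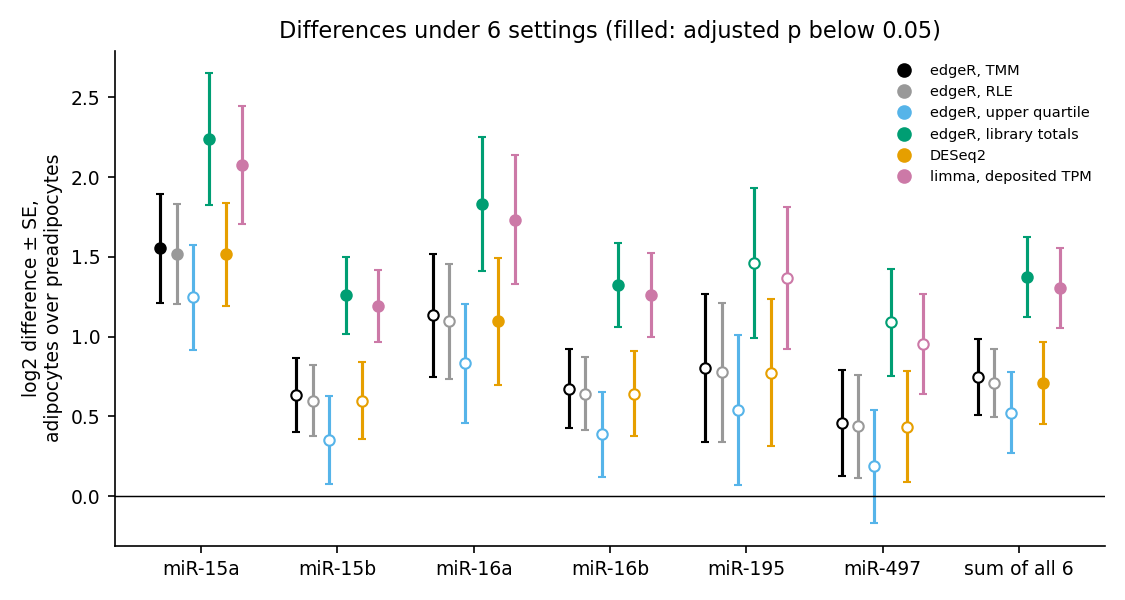
Log2 difference of adipocytes over preadipocytes with its SE (vertical axis) for each member and for the sum of all 6 under 6 settings of scaling or tool; filled points have an adjusted p below 0.05. All estimates lie above 0, the values with library totals alone and with limma on the deposited TPM being the highest, and miR-195 and miR-497 have no filled point.

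Rows of miRNAs whose 5p or only named arm shares part of the seed sequence were set beside the family. In this extended group, which also holds the 3p arms of miR-424 and miR-503, these arms not carrying the seed, miR-424 and miR-503 come from an X-linked cluster and miR-103 and miR-107 from introns of pantothenate kinase genes. Of 6 tested rows, 0 passed in edgeR's test over all miRNAs, 2 were below an unadjusted edgeR p of 0.05 (34.1% of all tested miRNAs), and DESeq2 called 1 higher and 1 lower (11.8% and 11.4% of all). The median log2 difference was -0.95 over the 6 rows and -0.06 over the 4 rows that remain when the 3p arms are left out, a choice made after seeing the data, against -0.02 over all tested miRNAs. The adipocyte and preadipocyte means of miR-107 were 196 ± 4.91 and 82.6 ± 27 CPM, a log2 difference of 1.24 (BH-adjusted p = 0.0637 in edgeR and 0.00241 in DESeq2). Those of miR-103 were 196 ± 15.7 CPM against 106.5 ± 50.4 CPM (0.88, adjusted p = 0.179 in edgeR). With all libraries the estimates for the X-linked cluster were negative, and for 2 of its 4 rows that sign rested on preadipocyte replicate 3. miR-424-5p was at 1352, 1344 and 1385 CPM in adipocyte replicates 1 to 3 and at 1212, 917 and 6011 CPM in preadipocyte replicates 1 to 3. Its log2 difference was -1.00 with all libraries (edgeR BH-adjusted p = 0.338) and 0.35 without preadipocyte replicate 3 (0.26 by the same test). miR-503-3p, at 3.67, 5.68 and 3.17 CPM in adipocytes and 3.35, 2.04 and 18.0 CPM in preadipocytes, went from -0.90 to 0.63 in the same way (edgeR BH-adjusted p = 0.447 and 0.251). For miR-503-5p they were 11.2 ± 0.758 CPM against 47.3 ± 36.8 CPM (-2.08, BH-adjusted p = 0.0637 in edgeR and 0.00241 in DESeq2), and for miR-424-3p 55.1 ± 1.29 CPM against 121 ± 88.8 CPM (-1.13, adjusted p = 0.183 in edgeR). Without preadipocyte replicate 3, miR-107 and miR-503-5p passed, at 1.47 and -1.23 (edgeR BH-adjusted p = 0.0229 and 0.0204). In that fit 13.8% of all rows were called higher and 18.1% lower.

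Among other miRNAs tied to the cell cycle, the p53-linked miR-34 and miR-449 group had 2 of its 6 rows above the low-count filter, and 1 of these 2 was called higher, against 3.86% of all tested miRNAs. This was miR-449a, at a mean of 279 ± 44.6 CPM against 87.7 ± 25.6 CPM (log2 difference 1.67, adjusted p = 0.0347 in edgeR). For miR-34a the means were 7275 ± 659 CPM against 5311 ± 1466 CPM (0.45, adjusted p = 0.241 in edgeR). Another list held the growth-promoting miR-17-92 clusters, their paralogs and the related miR-92b. Of its 12 tested rows, 0 passed in edgeR's test and 4 were below an unadjusted edgeR p of 0.05 (34.1% of all). DESeq2 called 0 of them higher and 2 lower (11.8% and 11.4% of all). Without preadipocyte replicate 3, 1 of the 12 passed as higher and 2 as lower in edgeR, where 13.8% and 18.1% of all rows did. Estimates were positive for 7 of the 12, with a median of 0.07. The 2 that DESeq2 called were miR-92a and miR-92b, at edgeR log2 differences of -0.90 and -1.18 (BH-adjusted p = 0.0588 and 0.0955 in edgeR). Without preadipocyte replicate 3 these 2 passed as lower, at -1.01 and -1.49 (edgeR BH-adjusted p = 0.0255 and 0.0204). The row that then passed as higher was miR-19b, at 1.52 (edgeR BH-adjusted p = 0.0334).

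The known miRNAs whose levels ran closest to those of miR-15a over the 6 libraries were miR-376b, miR-148a and miR-100. Closeness was the root mean square difference of log2 CPM centred on each miRNA's mean, over the known miRNAs outside the family that averaged 10 CPM or more. It was 0.17, 0.18 and 0.23 for these 3 against a median of 0.97. miR-148a, described as favouring fat cell differentiation, was at 1604, 1397 and 1133 CPM in adipocyte replicates 1 to 3 and at 537, 286 and 467 CPM in preadipocyte replicates 1 to 3. As for miR-15a, the lowest adipocyte library was replicate 3 and the lowest preadipocyte library replicate 2. Choosing miR-148a by closeness over these same libraries favours such a likeness, so it is not a separate observation. Closest to the summed family were miR-196b, miR-345-5p and miR-409b, at 0.18, 0.19 and 0.20 against a median of 0.63. miR-196b, of the HOX clusters, had means of 329 ± 25.4 CPM in adipocytes against 216 ± 54.4 CPM (0.61, adjusted p = 0.17 in edgeR).

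The deposited table marks known miRNA rows as hairpin or mature without saying what separates them. miR-15a, miR-16a and miR-497 are marked hairpin and miR-15b, miR-16b and miR-195 mature, so the pair of miR-15a and miR-16a is all hairpin, that of miR-15b and miR-16b all mature, and the third pair mixed. Over all tested known miRNAs the median log2 difference was -0.07 for 174 hairpin rows and 0.10 for 191 mature rows. The part of this mark in the difference between the pairs was not tested.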

How the data were processed

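Small RNA of 18 to 30 nt was sequenced from 3 adipocyte and 3 preadipocyte samples, per the labels' protocols. The authors deposited 1 table with, per the file headers, a raw read count and a TPM value per library. The submitters' processing notes list Bowtie2 without a version. Not given in the sources used here are the genome build, the miRNA release and the treatment of reads with several matches. In every library the deposited TPM is proportional to the count, and 0 is written as 0.001. The table holds 81.1% to 86.4% of the library total that this factor implies.

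Counts of the 771 known and 108 predicted miRNAs were fitted with edgeR 4.0.16 in R 4.3.3 (TMM, filterByExpr, glmQLFit, glmQLFTest, two-sided, no covariate, BH over all 414 tested rows, threshold 0.05). The 4 genome-feature rows (5.29% to 18.9% of a library) and 1330 Rfam and piRNA rows stayed out. SEs are the log2 difference over the root of F. Ratios and shares were tested by exact permutation in SciPy 1.17.1. Alternatives used limma 3.58.1 (pseudocount 1 on TPM) and DESeq2 1.42.0. Counts of 3 correspond to 0.142 to 0.244 CPM, for counting error only.

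Named are the members, the tested rows of 3 fixed lists and the 3 nearest patterns to miR-15a and to the summed family. Members and lists were chosen with earlier results of these data known.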

Additional observations from a re-analysis of the deposited data

Results flagged for a closer look

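Rows outside the miRNA rows also carried reads under names of the family. The Rfam row of the mir-16 precursor family held 18452 reads over the 6 libraries, which is 314, 274 and 198 unscaled CPM of miRNA reads in adipocyte replicates 1 to 3 and 120, 98.6 and 103 in preadipocyte replicates 1 to 3. Every adipocyte library was the higher, as was the case for 38.6% of all tested miRNAs in unscaled CPM. The Rfam row of the mir-15 precursor family held 374 reads, with 133, 109 and 58 in adipocyte replicates 1 to 3, none in preadipocyte replicates 1 and 2 (at most 3 reads by the limit of a count of 0), and 74 in the third. Both rows stand here because they lie outside the data compared in the report and exceed 3 reads in sum. It is not stated whether the miRNA rows count the same reads.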

How the results depend on the processing

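Members and their sums kept positive estimates in all 15 alternative settings run for each (0.19 to 2.24 for members, 0.39 to 1.95 for sums), and miR-195, miR-497 and their sum passed in none of them. Of 414 tested miRNAs, the count of 26 past the threshold became 49 with upper-quartile factors, 97 with library totals and 96 with DESeq2. It became 122 of 414 in limma's test of deposited TPM. With fewer rows tested it was 45 of 213 at a minimum of 10 CPM and 59 of 365 among known miRNAs only. Leaving out adipocyte replicate 1, adipocyte replicate 2 or preadipocyte replicate 2 gave 1 of 468, 1 of 466 or 1 of 452. Leaving out preadipocyte replicate 1, adipocyte replicate 3 or preadipocyte replicate 3 gave 4 of 439, 8 of 463 or 148 of 465. The difference of miR-15a no longer passed with upper-quartile factors (1.25) or without the low-count filter (1.65). Library totals brought past the threshold miR-15b (1.26), miR-16a (1.83), miR-16b (1.32) and the sums of all 6 (1.38), miR-15a and miR-15b (1.37), miR-16a and miR-16b (1.38), all but the miR-16 members (1.37), miR-15a and miR-16a (1.95) and miR-15b and miR-16b (1.31). Limma on TPM did so at 1.19, 1.73, 1.26, 1.31, 1.30, 1.31, 1.30, 1.84 and 1.24 in the same order. DESeq2 did so for miR-16a (1.10) and for the 6 sums, at 0.71, 0.71, 0.69, 0.71, 1.22 and 0.64. Among the 414 single rows, library totals called 88 higher, limma 110 and DESeq2 49. With single libraries left out, log2 differences ran from 1.36 to 1.69 for miR-15a, 0.91 to 1.53 for miR-16a, and, for the 6 sums in that order, 0.56 to 0.90, 0.52 to 0.83, 0.53 to 0.90, 0.52 to 0.84, 1.04 to 1.58 and 0.50 to 0.80. Among the listed miRNAs outside the family, miR-424-5p and miR-503-3p changed sign without preadipocyte replicate 3 (to 0.35 and 0.63). The cause of these changes was not tested.

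With a replicate block the count was 1 of 414 and miR-15a differed by 1.55 without passing (edgeR BH-adjusted p = 0.142). Whether the replicate numbers pair the samples is not stated. Deviations from the group mean correlated across miRNAs at 0.04, -0.31 and 0.02 for same-numbered libraries. For differently numbered libraries they correlated at -0.25 to 0.25. With 3 libraries per group these values cannot decide whether the samples are paired.

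The differences in share are in percentage points of family reads. Adding the reads of both arms of miR-424 and miR-503 to the total (miR-322 had no row) moved 3 of them. They became 3.23 for miR-15b, 10.9 for miR-16b and 0.030 for miR-497, from -1.92, -1.99 and -0.07. In this variant miR-424-5p stood at 6011 CPM in preadipocyte replicate 3, against 1212 and 917 CPM in replicates 1 and 2. The variant was not run without preadipocyte replicate 3. Leaving out both miR-16 members gave 6.23 for miR-15a, -6.21 for miR-15b and -0.236 for miR-497. Adding 0.5 to counts moved no ratio by more than its replicate SD. Depth limits miR-497 most, at 99 reads in its lowest library.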
